A study of Mus musculus with 9 samples.

Results

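The oligodendrocyte lineage genes examined here are 35 genes of mouse that mark the steps by which a glial progenitor becomes a myelinating cell, out of 25239 genes in the deposited table. They were taken by name, with earlier results of these data known, and divided by the step for which each is best known. The steps held 4 progenitor genes, 6 regulators used along the whole lineage, 7 genes of committed precursors and 18 genes of myelinating cells. They were measured by RNA sequencing in primary astrocytes, the glial culture grown on plates in serum from the cerebral cortex of mouse pups at postnatal day 4. Cultures exposed to 200 µM hydrogen peroxide (H2O2) for 3 h, washed and harvested 24 h later (day 1) gave 3 libraries. Cultures given the same exposure and harvested 72 h after washing (day 3) gave 3, and untreated cultures (control) gave 3. The labels name no strain, sex, pooling of pups or harvest time for the controls, and they mention no sorting of cells. Nor do they tell if the 3 libraries of a group are separate cultures. The p-values below therefore cover only the variation seen among the libraries, and that variation could be technical.

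Oligodendrocytes are the cells that wrap axons of the brain in myelin. They arise from proliferating progenitors that carry the receptor for platelet-derived growth factor, pass through a short committed stage marked by the receptor Gpr17, and then switch on the enzymes and membrane proteins of myelin. The transcription factors Olig2 and Sox10 act along the whole path, and Myrf drives its last steps. Astrocyte cultures from newborn cortex are known to hold some cells of this lineage, and astrocytes themselves also express several of the genes, among them Olig1, Olig2 and Cnp. In RNA from a whole culture, fewer cells of a type and less RNA per cell cannot be told apart.

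The libraries held 23032594 to 27850348 reads on day 1, 30545004 to 36749577 on day 3 and 30278210 to 38414668 in control, as worked out from the deposited values. Levels are FPKM as deposited, that is fragments divided by gene length and sequencing depth, so that levels of different genes may be set side by side. For a gene of 2 kb, 1 FPKM stood for 46.1 to 76.8 reads. Among markers of the labelled cell type, all 11 astrocyte genes passed the filter on low values, and Gfap, the intermediate filament of astrocytes, averaged 1235 ± 76.8 FPKM on day 1, 1333 ± 8.47 on day 3 and 1493 ± 33.7 in control (SD, n = 3 each).

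The lineage genes spanned a wide range of levels in these cultures. Olig1 was the most abundant, at 271 to 364 FPKM over the 9 libraries, followed by Cnp and Olig2. There were 7 genes at or above 10 FPKM in every library, namely Olig1, Olig2, Cnp, Nfasc, Sox8, C1ql1 and Fyn. At the other end 9 genes stayed under 1 FPKM in every library: Mog, Mobp, Enpp6, Opalin, Ermn, Fa2h, Erbb3, Neu4 and S1pr5. Most of these are genes of mature myelinating cells.

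**Figure D1:**
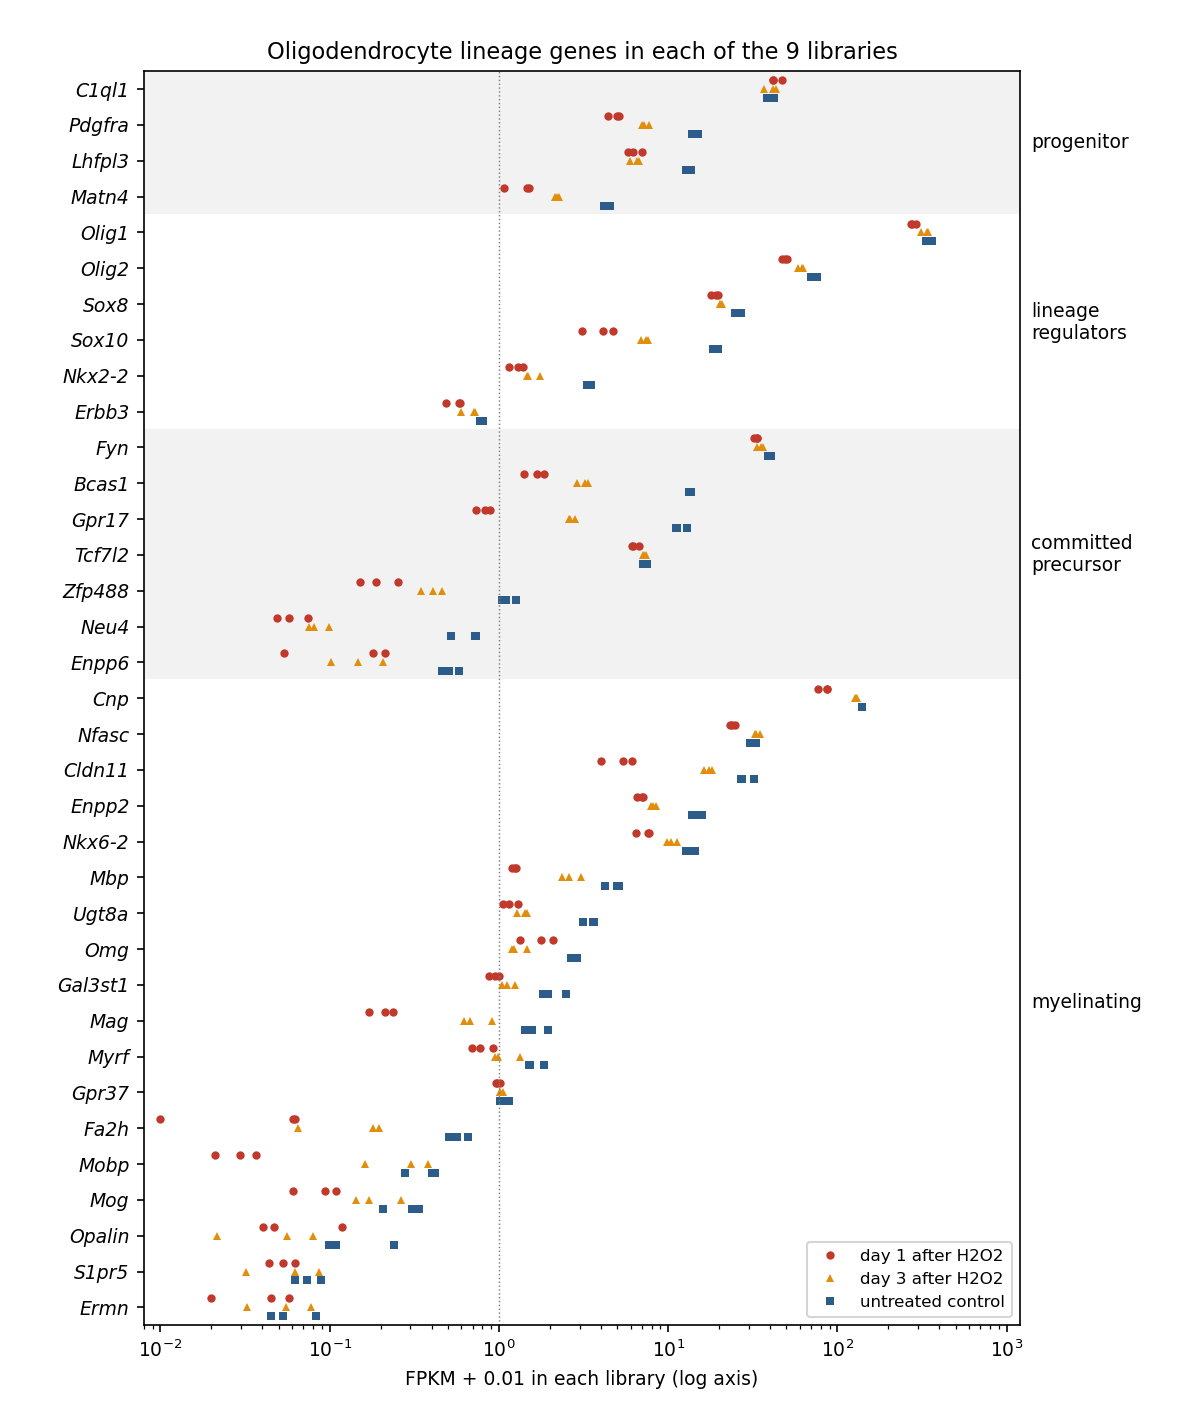
Level of each of the 35 lineage genes in each of the 9 libraries, in FPKM plus 0.01 on a log axis, with genes grouped by stage and libraries coloured by group. Olig1 lies farthest right at 271 to 364 FPKM, the dotted line marks 1 on the axis, and the point of Fa2h at the left edge is the day 1 library in which it had 0 reads.

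Differences between groups were tested with limma on log2(FPKM + 0.1) after rescaling between libraries, over 12611 genes averaging 1 FPKM or more across all 9 libraries, and a gene was called at an adjusted p under 0.05. Of the 35 lineage genes 24 passed that filter and 11 did not. A gene that passes such a filter only through the group where it is high is picked for a difference, so its call carries little weight. Of the 24 genes, 20 averaged at least 1 FPKM in each of the 3 groups. The exceptions were Gpr17, Myrf, Gal3st1 and Gpr37, which averaged 0.802, 0.784, 0.930 and 0.973 FPKM on day 1. These 4 are kept in the counts below, and of them Gpr37 was not called in any comparison. Fold changes on this scale understate the change of low genes.

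Much of the lineage list was lower after hydrogen peroxide, with the largest folds in Gpr17 and Bcas1, and none of the 24 tested genes was called higher than in control. On day 1, 22 of the 24 tested genes were lower and 0 were higher, where 31.1% of all genes tested were lower and 31.1% higher. At an unadjusted p under 0.05 C1ql1 was higher, and limma-voom on the recovered reads called it. By at least 2-fold, 12 of the 24 were lower, where 1.96% of all genes were. The median log2 fold change of the 24 genes on day 1 was -0.97, beside -0.00 over all genes tested. Because the list was chosen with earlier results of these data known, the shares of all genes describe it and do not test it.

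On day 3, 17 of the 24 tested lineage genes were lower than in control, where 6.45% of all genes tested were lower, and 0 were higher, where 7.37% of all genes were. At an unadjusted p under 0.05 Nfasc was higher, and limma-voom called no lineage gene higher. Those lower by at least 2-fold were 7 of the 24, where 0.167% of all genes were: Gpr17, Bcas1, Sox10, Nkx2-2, Ugt8a, Lhfpl3 and Omg. The median log2 fold change on day 3 was -0.76, beside 0.01 over all genes. Both days were set against the same 3 control libraries, so their differences from control are not independent. The same 17 genes were lower on both days, where 4.56% of all genes were.

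Set directly against day 1, day 3 had 16 of the 24 tested genes higher, where 27.9% of all genes tested were higher, and 1 lower, Omg, where 28.4% of all genes were lower and 56.2% differed in either direction. The median log2 difference was 0.28, beside 0.00 over all genes. Day 3 cultures were also harvested later than day 1 cultures, so time since exposure and time in culture cannot be told apart. Genes lower than control on both days and higher on day 3 than on day 1 were 12 of the 24, where 2.59% of all genes were. For 4 others, Olig1, Cnp, Nfasc and Tcf7l2, the level was lower on day 1, was not called apart from control on day 3 and was higher on day 3 than on day 1. For Ugt8a, Gal3st1, Lhfpl3 and Fyn the level was lower on both days and the days were not called apart. Counted by libraries alone, all 3 day 1 libraries lay below all 3 controls for 22 of the 24 genes, where this held for 37.3% of all genes. All day 3 libraries lay below all controls for 19 genes, beside 17.8% of all genes, and above all day 1 libraries for 19, beside 33.0%.

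**Figure D2:**
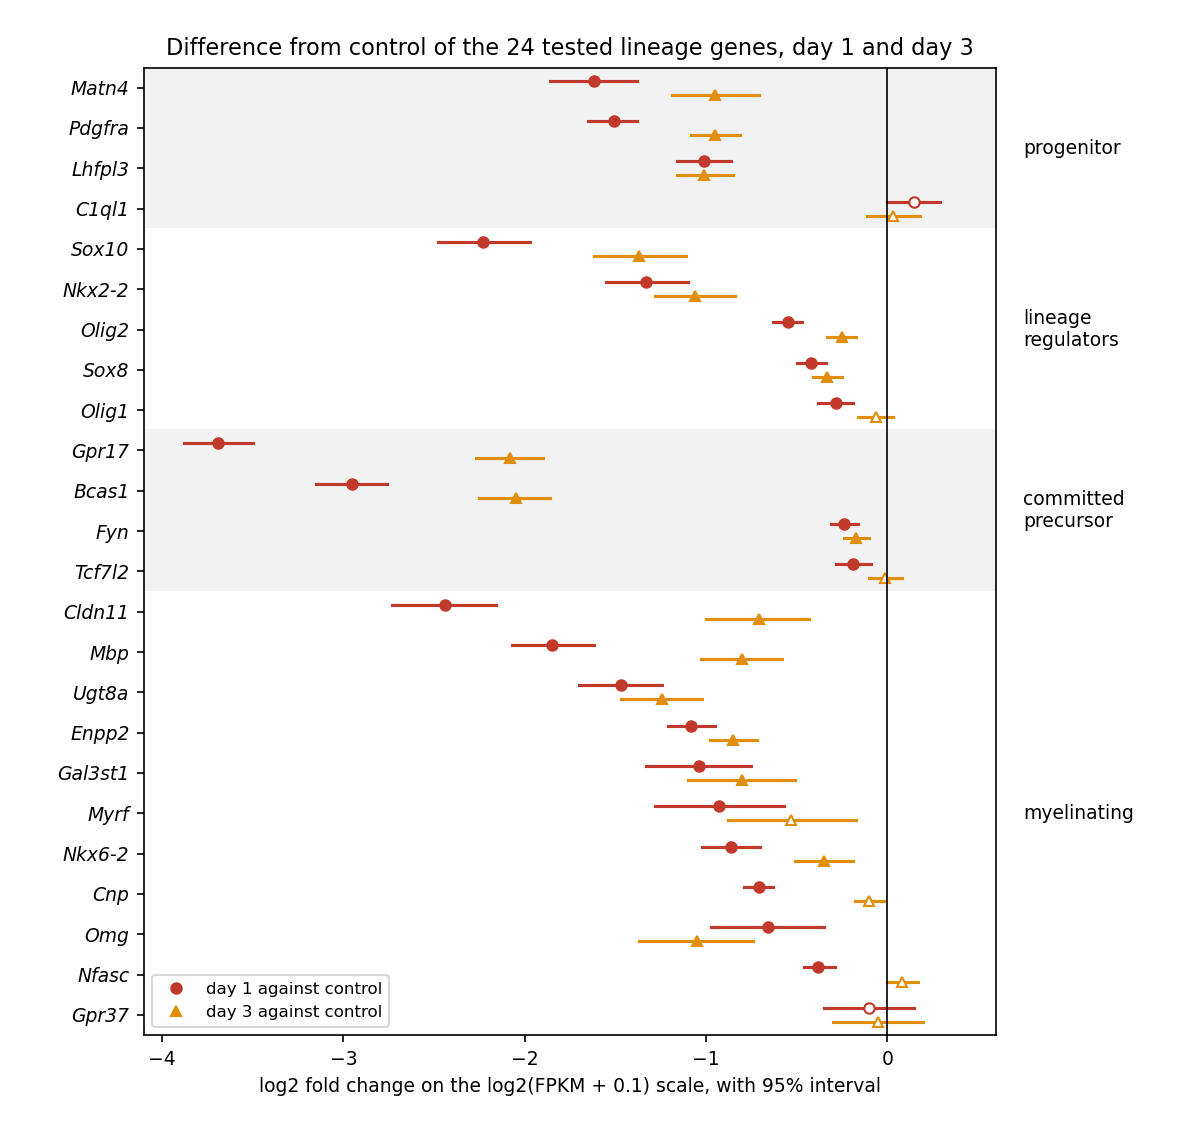
Log2 fold change of the 24 tested lineage genes, with 95% confidence intervals from limma, for day 1 (circles) and day 3 (triangles) against control, with genes grouped by stage. Filled points were called at an adjusted p under 0.05 and open points were not, and 22 genes on day 1 and 17 on day 3 are filled and below 0, with Gpr17 and Bcas1 the farthest left.

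The progenitor genes were lower on both days, apart from C1ql1. Pdgfra, the receptor for platelet-derived growth factor AA that keeps progenitors dividing (chr5:75151322-75198206 in GRCm38.p6), was at 4.99, 5.10 and 4.42 FPKM in the 3 day 1 libraries, at 7.00, 7.71 and 7.15 in the day 3 libraries, and at 14.0, 15.1 and 13.8 in control. The 3 groups did not overlap, with day 3 between day 1 and control. Pdgfra was 2.86-fold lower on day 1 (log2 fold change -1.51, SE 0.06, limma adjusted p = 1.64e-08) and 1.93-fold lower on day 3 (adjusted p = 1.14e-05), and it was 1.48-fold higher on day 3 than on day 1 (adjusted p = 1.99e-05). Fibroblasts of the meninges also express Pdgfra.

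Matn4, a matrix protein of the matrilin family found in progenitors, was at 1.46, 1.49 and 1.06 FPKM on day 1, at 2.20, 2.25 and 2.13 on day 3 and at 4.43, 4.54 and 4.15 in control. It followed the order of Pdgfra without overlap, 3.07-fold lower on day 1 (log2 fold change -1.62, SE 0.11, limma adjusted p = 5.16e-07) and 1.93-fold lower on day 3 (adjusted p = 4.37e-04). Lhfpl3, a membrane protein of the tetraspan class, was at 7.03, 6.20 and 5.80 FPKM on day 1, at 5.98, 6.55 and 6.72 on day 3 and at 13.6, 13.0 and 12.8 in control. Here the 2 treated groups overlapped each other and both lay below control. Lhfpl3 was 2.01-fold lower on day 1 (limma adjusted p = 5.87e-07) and 2.01-fold lower on day 3 (adjusted p = 1.87e-05). The 95% interval of its fold between day 3 and day 1 was 0.901 to 1.11, and that difference was not called (adjusted p = 0.977). C1ql1, a secreted protein of the C1q family, ranged from 37.0 to 47.2 FPKM over all 9 libraries and was not called in any comparison, with a limma adjusted p of 0.0698 on day 1, although it was called higher there without day 3 replicate 1 (adjusted p = 0.0279), with limma-voom (0.0221) and with only the 6 libraries compared (0.0346).

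The regulators shared by the whole lineage separated into those with a large difference and those with a small one. Sox10, a transcription factor that most oligodendrocyte lineage genes depend on (chr15:79154913-79164490), was at 4.14, 4.74 and 3.07 FPKM on day 1, at 6.90, 7.57 and 7.35 on day 3 and at 19.4, 18.5 and 19.6 in control. All 3 groups were apart, and the lowest day 1 library was replicate 3. Sox10 was 4.68-fold lower on day 1 (log2 fold change -2.23, SE 0.12, limma adjusted p = 9.08e-08) and 2.58-fold lower on day 3 (adjusted p = 6.64e-05), with day 3 1.81-fold above day 1 (adjusted p = 1.07e-04). Nkx2-2, a homeodomain factor of progenitors entering differentiation, was at 1.14, 1.38 and 1.28 FPKM on day 1, at 1.46, 1.75 and 1.48 on day 3 and at 3.32, 3.51 and 3.33 in control. Its groups did not overlap, although the days lay close together. It was 2.51-fold lower on day 1 (limma adjusted p = 1.15e-06) and 2.08-fold lower on day 3 (adjusted p = 1.51e-04). Its difference between the days, 1.20-fold, had an adjusted p of 0.0408 and was lost without any 1 of the 3 control libraries, without day 1 replicate 1 or 3, or without day 3 replicate 2 (adjusted p = 0.0541 to 0.152). The call of Nkx2-2 between the days was also lost after quantile normalization (limma adjusted p = 0.207), with only the 6 libraries compared (0.0918), with limma-voom (0.0847) and without the filter (0.0668).

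Olig1, Olig2 and Sox8, which astrocyte cultures express at high levels, differed less. Olig2, the factor that specifies the lineage, averaged 48.8 ± 1.52 FPKM on day 1, 60.7 ± 2.21 on day 3 and 73.2 ± 2.71 in control (SD, n = 3 each), and was 1.46-fold lower on day 1 and 1.19-fold lower on day 3 (limma adjusted p = 3.45e-07 and 0.00123). Olig1, its close relative, averaged 279 ± 10.9 FPKM on day 1, 330.1 ± 15.8 on day 3 and 348 ± 15.6 in control (SD, n = 3 each). Its day 3 and control libraries overlapped. Olig1 was 1.22-fold lower on day 1 (limma adjusted p = 1.94e-04) and was not called on day 3 (adjusted p = 0.406). Sox8, a factor of the same family as Sox10, was 1.34-fold lower on day 1 and 1.26-fold lower on day 3 (limma adjusted p = 2.21e-06 and 2.56e-04). Its 1.06-fold difference between the days had an adjusted p of 0.0466 and was lost without control replicate 2, without day 1 replicate 2 or 3, or without any 1 day 3 library (adjusted p = 0.0578 to 0.179). The call of Sox8 between the days was also lost with the replicate block (limma adjusted p = 0.0683), without the filter (0.0582) and with only the 6 libraries compared (0.0571). The same held with limma-voom (0.0533), on FPKM as deposited (0.0519) and with a filter of 0.1 FPKM (0.0512). Erbb3, a receptor for neuregulins, was under the filter, at 0.479 to 0.579 FPKM on day 1, 0.589 to 0.708 on day 3 and 0.764 to 0.793 in control.

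Of the committed precursor genes, Gpr17 and Bcas1 had the largest folds against control among the 24 tested genes, and Fyn and Tcf7l2 some of the smallest. Gpr17, a G protein-coupled receptor expressed transiently between progenitor and myelinating cell, was at 0.871, 0.816 and 0.719 FPKM on day 1, at 2.59, 2.61 and 2.80 on day 3 and at 12.9, 11.1 and 11.3 in control. No day 1 library came near a day 3 library, and no day 3 library near a control one. Its level was 6.81% of the control mean on day 1 and 22.6% on day 3. Gpr17 was 12.9-fold lower on day 1 (log2 fold change -3.69, SE 0.08, limma adjusted p = 1.17e-09) and 4.24-fold lower on day 3 (adjusted p = 9.34e-07), with day 3 3.04-fold above day 1 (adjusted p = 1.87e-07).

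Bcas1, a protein of early myelinating and precursor cells (chr2:170343973-170427911), was at 1.66, 1.85 and 1.39 FPKM on day 1, at 2.89, 3.35 and 3.20 on day 3 and at 13.6, 13.3 and 13.6 in control. The 3 groups were again apart. It was 7.74-fold lower on day 1 (log2 fold change -2.95, SE 0.09, limma adjusted p = 3.50e-09) and 4.15-fold lower on day 3 (adjusted p = 9.83e-07), with day 3 1.86-fold above day 1 (adjusted p = 1.16e-05). Fyn, a kinase of the Src family, and Tcf7l2, a transcription factor of Wnt signalling, are also expressed outside the lineage. Fyn, at 32.2 to 33.5 FPKM on day 1, 33.5 to 36.2 on day 3 and 38.9 to 40.7 in control, was 1.18-fold lower on day 1 and 1.12-fold lower on day 3 (limma adjusted p = 9.40e-05 and 0.00643). Its days were called apart only without day 3 replicate 1 (adjusted p = 0.0132) and after quantile normalization (0.0180). Tcf7l2, at 6.07 to 6.71 FPKM on day 1, 7.10 to 7.36 on day 3 and 7.13 to 7.47 in control, was 1.14-fold lower on day 1 (limma adjusted p = 0.00300) and was not called on day 3 (adjusted p = 0.917).

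The remaining committed precursor genes were under the filter. Neu4, a sialidase, averaged 0.0503 ± 0.0129 FPKM on day 1, 0.0752 ± 0.0122 on day 3 and 0.649 ± 0.119 in control (SD, n = 3 each). These levels rested on 5 to 7 reads on day 1, 10 to 15 on day 3 and 74 to 126 in control. Zfp488, a zinc finger transcription factor of the lineage, had 17 to 24 reads on day 1, 52 to 71 on day 3 and 134 to 180 in control. Reads of both genes were thus fewer in every treated library than in any control library. Enpp6, a choline phosphodiesterase of newly formed oligodendrocytes, had 20, 28 and 5 reads on day 1, 14, 25 and 36 on day 3 and 68, 109 and 78 in control, so its treated groups overlapped each other and lay below control.

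**Figure D3:**
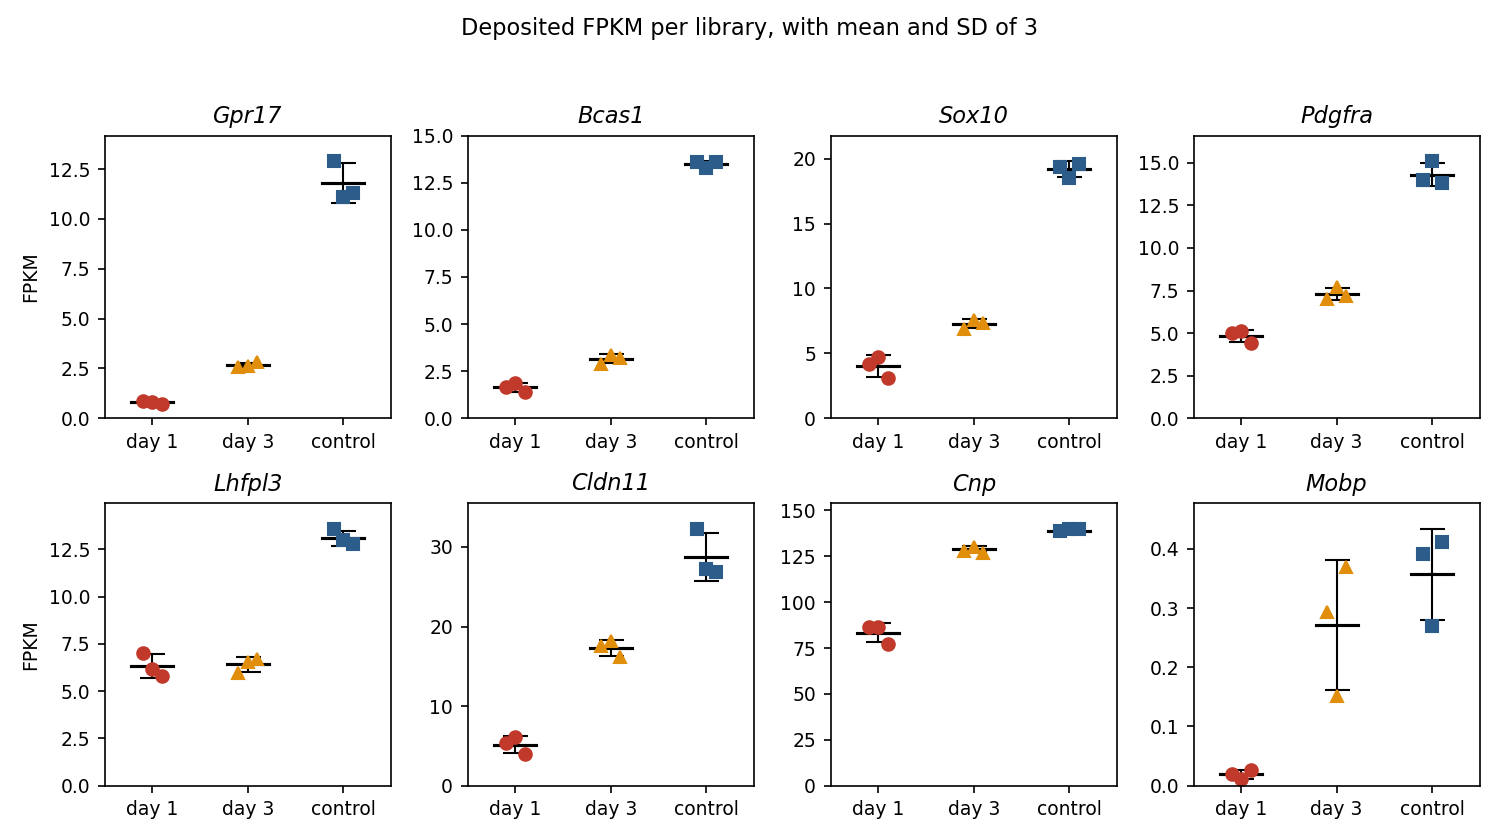
Level in FPKM of 8 lineage genes in each library on a linear axis starting at 0, with day 1, day 3 and control from left to right, points for libraries and bars for mean and SD. In Gpr17, Bcas1, Sox10, Pdgfra and Cldn11 the 3 groups were apart with day 3 in the middle, whereas in Lhfpl3 the days overlapped, Cnp on day 3 lay near control and Mobp on day 3 overlapped control.

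Genes of myelinating cells differed widely among themselves, with log2 fold changes from -2.44 to -0.10 on day 1 and from -0.39 to 1.73 between day 3 and day 1. Cldn11, the claudin that seals the layers of myelin (chr3:31149920-31164326), was at 5.37, 6.12 and 3.99 FPKM on day 1, at 17.5, 18.2 and 16.2 on day 3 and at 32.3, 27.2 and 26.9 in control. The groups were apart, with day 1 at 17.9% and day 3 at 60.1% of the control mean. Cldn11 was 5.43-fold lower on day 1 (log2 fold change -2.44, SE 0.13, limma adjusted p = 9.95e-08) and 1.64-fold lower on day 3 (adjusted p = 0.00471). Its level on day 3 was 3.32-fold that on day 1 (adjusted p = 1.58e-06), the largest fold between the days among the 24 tested genes. The part of cells outside the lineage in the level of Cldn11 was not tested. Mbp, myelin basic protein, which compacts the sheath, was at 1.25, 1.23 and 1.18 FPKM on day 1, at 2.60, 2.35 and 3.04 on day 3 and at 5.14, 4.20 and 4.95 in control. No library of one group reached another group. Mbp was 3.59-fold lower on day 1 (log2 fold change -1.85, SE 0.10, limma adjusted p = 1.39e-07) and 1.74-fold lower on day 3 (adjusted p = 7.61e-04), with day 3 2.06-fold above day 1 (adjusted p = 1.16e-05).

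Of the enzymes measured, Ugt8a, Gal3st1 and Enpp2 were lower on both days. Ugt8a, which makes galactosylceramide, was at 1.28, 1.14 and 1.05 FPKM on day 1, at 1.27, 1.42 and 1.46 on day 3 and at 3.60, 3.12 and 3.63 in control. Its day 1 and day 3 libraries overlapped, and both groups lay below control. Ugt8a was 2.77-fold lower on day 1 (limma adjusted p = 6.99e-07) and 2.37-fold lower on day 3 (adjusted p = 6.29e-05), while the 1.17-fold difference between the days was not called (95% interval of the fold 0.996 to 1.37, adjusted p = 0.0884), except without day 1 replicate 1 (adjusted p = 0.0485). Gal3st1, which sulfates galactosylceramide, was at 0.993, 0.861 and 0.935 FPKM on day 1, at 1.03, 1.11 and 1.24 on day 3 and at 1.94, 1.81 and 2.47 in control. Both treated groups lay below control. It was 2.05-fold lower on day 1 (limma adjusted p = 5.41e-05) and 1.75-fold lower on day 3 (adjusted p = 0.00289), and the days were not called apart (95% interval of the fold 0.960 to 1.44, adjusted p = 0.155). Enpp2, also called autotaxin, which produces lysophosphatidic acid, was at 6.53, 7.06 and 7.03 FPKM on day 1, at 7.93, 8.13 and 8.46 on day 3 and at 15.2, 15.9 and 13.8 in control. Each group stood clear of the others. Enpp2 was 2.11-fold lower on day 1 and 1.80-fold lower on day 3 (limma adjusted p = 1.08e-07 and 1.84e-05), with day 3 1.17-fold above day 1 (adjusted p = 0.00566).

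Omg, the oligodendrocyte myelin glycoprotein, which neurons also express, went the other way between the days. It was at 2.07, 1.77 and 1.33 FPKM on day 1, at 1.19, 1.45 and 1.22 on day 3 and at 2.86, 2.64 and 2.90 in control. The treated groups overlapped through day 1 replicate 3, and both lay below control. Omg was 1.58-fold lower on day 1 (limma adjusted p = 0.00203) and 2.07-fold lower on day 3 (adjusted p = 0.00100). Its 1.31-fold lower level on day 3 than on day 1 had an adjusted p of 0.0353, and the call was lost without day 1 replicate 1 or 2, or without day 3 replicate 1 or 3 (adjusted p = 0.0855 to 0.132).

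Cnp, a phosphodiesterase of the cytoplasmic channels of myelin, was at 83.4 ± 5.35 FPKM on day 1, at 129 ± 1.49 on day 3 and at 139 ± 0.763 in control (SD, n = 3 each). Its day 1 libraries lay far below the others, and its day 3 libraries lay just below control. Cnp was 1.64-fold lower on day 1 (log2 fold change -0.71, SE 0.04, limma adjusted p = 8.60e-08) and was not called on day 3 (95% interval of the fold 0.882 to 0.986, adjusted p = 0.0971), although it was called without day 1 replicate 3 (adjusted p = 0.0223), with limma-voom (0.0227), with only the 6 libraries compared (0.0421) and after quantile normalization (0.0460). Nfasc, which builds the junction between myelin and axon and the node, was at 23.3 to 24.8 FPKM on day 1, 32.6 to 34.8 on day 3 and 30.6 to 33.1 in control. It was 1.30-fold lower on day 1 (limma adjusted p = 9.11e-06), was not called on day 3 (adjusted p = 0.175) and was 1.38-fold higher on day 3 than on day 1 (adjusted p = 3.23e-06). Nkx6-2, a homeodomain factor of myelin formation, was 1.81-fold lower on day 1 and 1.28-fold lower on day 3 (limma adjusted p = 2.20e-06 and 0.00895).

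Myrf, the factor that switches on myelin genes, was at 0.680 to 0.908 FPKM on day 1, 0.941 to 1.32 on day 3 and 1.49 to 1.83 in control. Its groups did not overlap. It was 1.90-fold lower on day 1 (limma adjusted p = 4.96e-04), while neither its 1.44-fold lower level on day 3 (adjusted p = 0.0542) nor its 1.32-fold higher level on day 3 than on day 1 (adjusted p = 0.0545) was called. Its lower level on day 3 was called with limma-voom (adjusted p = 0.00146), with a pseudocount of 1 FPKM (0.0404), on FPKM as deposited (0.0485), and without day 1 replicate 3 (0.0467) or day 3 replicate 3 (0.0358). Its difference between the days was called with limma-voom (adjusted p = 0.0133), on FPKM as deposited (0.0454), and without day 1 replicate 3 (0.0309) or day 3 replicate 2 (0.0498). Gpr37, a receptor of myelinating cells that astrocytes also express, ranged from 0.948 to 1.13 FPKM over all libraries and was not called in any comparison, with 95% intervals of its fold of 0.786 to 1.11 on day 1 and 0.813 to 1.15 on day 3.

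Of the late myelin genes, 7 lay under the filter and rested on few reads. Mag, a glycoprotein of the myelin membrane next to the axon, had 13, 17 and 10 reads on day 1, 55, 61 and 90 on day 3 and 160, 146 and 133 in control, or 0.196 ± 0.0331 FPKM on day 1, 0.729 ± 0.155 on day 3 and 1.64 ± 0.283 in control (SD, n = 3 each). Its 3 groups were apart. Mobp, a protein of compact myelin, had 3, 2 and 4 reads on day 1, 58, 36 and 88 on day 3 and 77, 67 and 84 in control. Day 3 overlapped control, and day 1 was far below both. Mog, on the outer surface of myelin, had 4, 4 and 2 reads on day 1, 7, 10 and 16 on day 3 and 17, 13 and 16 in control. Fa2h, which hydroxylates the fatty acids of myelin lipids, had 3, 0 and 3 reads on day 1, 13, 5 and 17 on day 3 and 49, 53 and 39 in control, so that both treated groups were below control. Opalin, Ermn and S1pr5, which mark mature oligodendrocytes, had 1 to 9 reads in the treated libraries and 4 to 17 in control. On day 3 Opalin had 5, 1 and 4 reads, all below its 7, 8 and 17 in control. In FPKM, which allow for depth, Opalin overlapped control on day 1, and Ermn and S1pr5 overlapped control on both days.

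In a fit without the filter, over 20350 genes, 8 of the 11 low genes were called lower on day 1, or 30 of all 35 lineage genes, where 21.6% of all genes were. On day 3 it called 5 of the 11 and 22 of the 35, where 3.74% of all genes were lower. Between the days 5 of the 11 were higher on day 3, where 18.6% of all genes were: Mag, Mobp, Mog, Fa2h and Zfp488. Mag had a log2 fold change of -2.52 on day 1 and -1.06 on day 3 (limma adjusted p = 5.80e-06 and 0.00922). Mobp was at -1.91 on day 1 and -0.32 on day 3 (limma adjusted p = 1.47e-04 and 0.509), and at 1.59 between day 3 and day 1 (adjusted p = 5.86e-04). Neu4 was at -2.29 on day 1 and -2.07 on day 3 (limma adjusted p = 4.45e-06 and 2.05e-04), with 0.22 between the days, which was not called (adjusted p = 0.325). At these levels the added 0.1 FPKM pulls fold changes toward 0. Opalin, Ermn and S1pr5 were not called in any comparison.

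By stage, genes called lower on day 1 were 3 of 4 tested progenitor genes, 5 of 5 regulators, 4 of 4 committed precursor genes and 10 of 11 myelinating genes. Of all genes tested 31.1% were lower. The median log2 fold changes of the stages on day 1 were -1.26, -0.55, -1.59 and -0.93 in that order. On day 3 the counts were 3, 4, 3 and 7, where 6.45% of all genes were lower, with medians of -0.95, -0.33, -1.11 and -0.71. With 4 to 11 genes a stage, no difference between stages was tested. These values hold for the listed genes only. Other genes of the lineage, described below, had day 1 medians of -0.28 for progenitor, -0.32 for committed precursor and -0.01 for myelinating genes.

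Promoters of the lineage genes were read from RefSeq for GRCm38.p6, and 31 promoters of 24 of the 35 genes were available here. None was available for Gpr17, Bcas1, Sox10, Olig1, Mbp, Enpp2, Myrf, Fa2h, Erbb3, C1ql1 and Omg. The shares below therefore leave out these 11 genes, among them those with the largest folds. The 250 bases before each start were searched on both strands for 3 sets of letters: ACAAAG or ACAATG, bound by SOX factors, CTGGCAC or CTGGTAC, bound by Myrf, and the E-boxes CAGCTG or CAGATG, bound by Olig2. A SOX match stood in 12 of the 31 promoters, or 38.7%, beside 25.2% of the 32851 promoters in the table. A Myrf match stood in 5, or 16.1%, beside 5.93%, and an Olig2 match in 5, or 16.1%, beside 25.5%. Some genes have more than 1 promoter, and of the 3 promoters each of Mag and Gal3st1 2 overlap and share their matches, which are counted in both, so promoters are not independent. A match is a run of letters and not a site shown to be bound.

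Promoters of 5 genes are given for the ways in which their genes differed between the days, each 5′ to 3′ on the strand of its gene, with matches in capitals. Those of Mag, Mobp, Lhfpl3 and Cldn11 end at the base before the start, whereas that of Cnp is cut at the base before the outermost start of the gene in RefSeq. Mag on chr7:30914923-30915172 (minus strand) has a SOX match 67 bases and a Myrf match 9 bases before the start. Cnp on chr11:100574689-100574908 (plus strand) holds the same pair, 167 and 81 bases before the start of its promoter in the table, which lies beyond the end of the printed stretch. Mobp on chr9:120149492-120149741 (plus strand) has 6 SOX matches. Lhfpl3 on chr5:22745804-22746053 (plus strand), whose level did not differ between the days beyond its spread, has E-boxes 158 and 149 bases before the start. Cldn11 on chr3:31149670-31149919 (plus strand), with the largest fold between the days among tested genes, has none of these letters in the window.
Mag: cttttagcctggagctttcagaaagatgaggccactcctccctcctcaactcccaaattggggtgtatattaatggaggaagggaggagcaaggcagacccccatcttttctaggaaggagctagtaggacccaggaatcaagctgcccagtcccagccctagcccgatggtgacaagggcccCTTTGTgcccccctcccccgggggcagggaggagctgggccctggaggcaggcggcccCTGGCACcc
Cnp: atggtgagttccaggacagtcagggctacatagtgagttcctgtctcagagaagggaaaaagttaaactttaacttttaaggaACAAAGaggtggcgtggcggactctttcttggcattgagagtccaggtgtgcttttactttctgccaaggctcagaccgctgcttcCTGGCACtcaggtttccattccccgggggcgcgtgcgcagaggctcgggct
Mobp: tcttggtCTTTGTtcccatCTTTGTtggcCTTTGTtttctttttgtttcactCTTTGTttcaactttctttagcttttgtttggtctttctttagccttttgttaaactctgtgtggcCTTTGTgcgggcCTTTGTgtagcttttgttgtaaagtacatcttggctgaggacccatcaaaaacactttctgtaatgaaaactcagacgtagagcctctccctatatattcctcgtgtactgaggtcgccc
Lhfpl3: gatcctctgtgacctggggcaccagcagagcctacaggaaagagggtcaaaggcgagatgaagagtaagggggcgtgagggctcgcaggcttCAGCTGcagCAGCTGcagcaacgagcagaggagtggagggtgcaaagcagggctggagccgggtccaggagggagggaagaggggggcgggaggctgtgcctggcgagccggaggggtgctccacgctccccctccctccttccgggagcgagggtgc
Cldn11: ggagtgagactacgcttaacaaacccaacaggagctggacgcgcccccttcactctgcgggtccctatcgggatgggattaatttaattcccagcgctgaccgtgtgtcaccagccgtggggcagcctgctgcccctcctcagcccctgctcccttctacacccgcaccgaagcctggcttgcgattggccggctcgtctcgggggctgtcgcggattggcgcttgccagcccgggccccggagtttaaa

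Some of the counted reads may belong to other genes. The strand setting of the counting is not given here, and by the GENCODE annotation Lhfpl3 shares 17.6% of its exonic bases with a gene on the other strand, Nkx6-2 12.9%, Bcas1 12.6%, Sox8 10.6%, Nkx2-2 9.67% and Olig1 7.26%. For Gpr17 the shared part is 3.62%, with Lims2.

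Libraries of a group were not equal in these genes. Day 1 replicate 3 was the lowest of its group for 16 of the 24 tested lineage genes, where it was the lowest for 33.9% of all genes. Day 3 replicate 1 was the lowest of its group for 18 of the 24, where it was for 33.5% of all genes. Without day 1 replicate 3 the count lower on day 1 was still 22, and without day 3 replicate 1 the count lower on day 3 was still 17.

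Other genes of the lineage, 51 listed and 40 tested, were called in both directions. On day 1, 22 were lower and 13 higher, where 31.1% of all genes tested were lower and 31.1% higher, with a median log2 fold change of -0.26. On day 3, 12 were lower and 3 higher, where 6.45% and 7.37% of all genes were, with a median of -0.08. The counts of higher genes were thus near the share over all genes. Of 12 further progenitor genes tested 7 were lower on day 1 and 3 higher. Cacng4, a subunit of glutamate receptors, was 2.29-fold lower and Tnr, the matrix protein tenascin R, 1.72-fold lower. Cspg4, the NG2 proteoglycan of progenitors and of mural cells, was 2.35-fold higher, Emid1 1.37-fold higher and Vcan, the matrix proteoglycan versican, 1.20-fold higher (limma adjusted p at most 2.50e-04 for these 5 genes).

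Among 8 further committed precursor genes tested, 6 were lower on day 1, led by Bmp4 (1.61-fold), Itpr2 (1.47-fold) and Mycl (1.46-fold), and Rras2 was 1.33-fold higher. The 20 further myelinating genes were divided, with 9 lower and 9 higher on day 1. The largest differences were in Apod, a lipid carrier also made by other glia and fibroblasts (11.4-fold lower), Gjc3, a connexin (3.74-fold lower), and Pllp, plasmolipin (2.78-fold lower). Those higher were led by Adamts4 (2.24-fold), Nipal4 (2.14-fold) and Cryab (1.65-fold). On day 3 Gjc3 was 2.58-fold lower and Pllp 1.73-fold lower (limma adjusted p = 1.87e-05 and 0.00119), and Apod was not called (adjusted p = 0.206). Of the 20 genes, 4 were lower on day 3 and 3 higher, where 6.45% and 7.37% of all genes were. The higher ones were Gsn and Myo1d, each 1.22-fold, and Adamts4, 1.16-fold (limma adjusted p at most 0.0384).

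Signals that act on the lineage were measured in the same cultures, and 18 such ligands, receptors and mediators were tested. On day 1, 10 were higher and 6 lower, where 31.1% of all genes tested were higher and 31.1% lower, so the count lower was near the share over all genes. On day 3, 5 were higher and 3 lower, where 7.37% and 6.45% of all genes were. Pdgfa, the ligand of the Pdgfra receptor, averaged 25.8 ± 0.185 FPKM on day 1, 22.5 ± 1.17 on day 3 and 19.4 ± 0.766 in control (SD, n = 3 each). It was 1.36-fold higher on day 1 (limma adjusted p = 7.12e-06) and 1.17-fold higher on day 3 (adjusted p = 0.00668), when the receptor was lower. Lif, a cytokine that favours survival of oligodendrocytes, was 3.38-fold higher on day 1, and Bmp7, a bone morphogenetic protein, was 4.52-fold lower (limma adjusted p = 2.45e-08 and 2.24e-08). The others lower on day 1 were Bmp4, Lingo1, Fgfr1, Igf1r and Id4.

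Markers of other cells also differed between the groups. Of all genes tested 31.1% were lower and 31.1% higher on day 1, and 6.45% were lower and 7.37% higher on day 3. Of 12 microglia genes tested 11 were lower on day 1, led by Ly86 (3.15-fold), C1qa (3.09-fold) and C1qc (3.06-fold), and 1, Tmem119, was higher. The summed level of the microglia list was 117 to 129 FPKM on day 1, 245 to 315 on day 3 and 298 to 322 in control. On day 3 limma called 0 microglia genes lower and 0 higher, with 1 lower at an unadjusted p under 0.05 and 0 by limma-voom. Of 11 astrocyte genes 7 were lower on day 1, led by Slc1a2, Slc1a3 and Aldoc, and Aldh1l1 and Aqp4 were higher. On day 3, 3 astrocyte genes were lower and 0 higher, with 0 higher at an unadjusted p under 0.05 and 0 by limma-voom. The astrocyte list summed to 2392 to 2676 FPKM on day 1, 3057 to 3084 on day 3 and 3267 to 3361 in control.

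Fibroblast and meningeal genes were divided on day 1, with 4 of 9 lower, among them Dcn, and 4 higher, among them Col1a1 and Col1a2. Of all genes tested 31.1% were lower and 31.1% higher. On day 3, 6 of the 9 were higher, where 7.37% of all genes were. The fibroblast list summed to 2081 to 2213 FPKM on day 1, 1230.5 to 1476 on day 3 and 1052 to 1124 in control, most of it collagen. Of 8 mural cell genes 5 were tested, and 4 of the 5 were higher on day 1, led by Cspg4, Acta2 and Pdgfrb. Rgs5 was not called on either day, and Kcnj8, Abcc9 and Des were under the filter. The mural list summed to 1045 to 1099.6 FPKM on day 1, 418 to 482 on day 3 and 503 to 534 in control, most of it Acta2. Of 5 ependymal and choroid plexus genes 4 were lower on day 1, led by Folr1, Rarres2 and Ccdc153. On day 3 limma called 0 of them, with 2 lower at an unadjusted p under 0.05 and 2 by limma-voom. Few genes of Schwann cells (3 of 7), neurons (2 of 9) and endothelium (1 of 6) passed the filter, with Egr2 and Cdh19 higher and Prx lower, Stmn2 and Tubb3 higher and Cdh5 not called on day 1. No marker was at 0 in every library, although Cldn5 of endothelium was at 0 in every treated library and at most at 0.0184 FPKM in control. The part of any of these cells in the levels of the lineage genes was not tested.

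**Figure D4:**
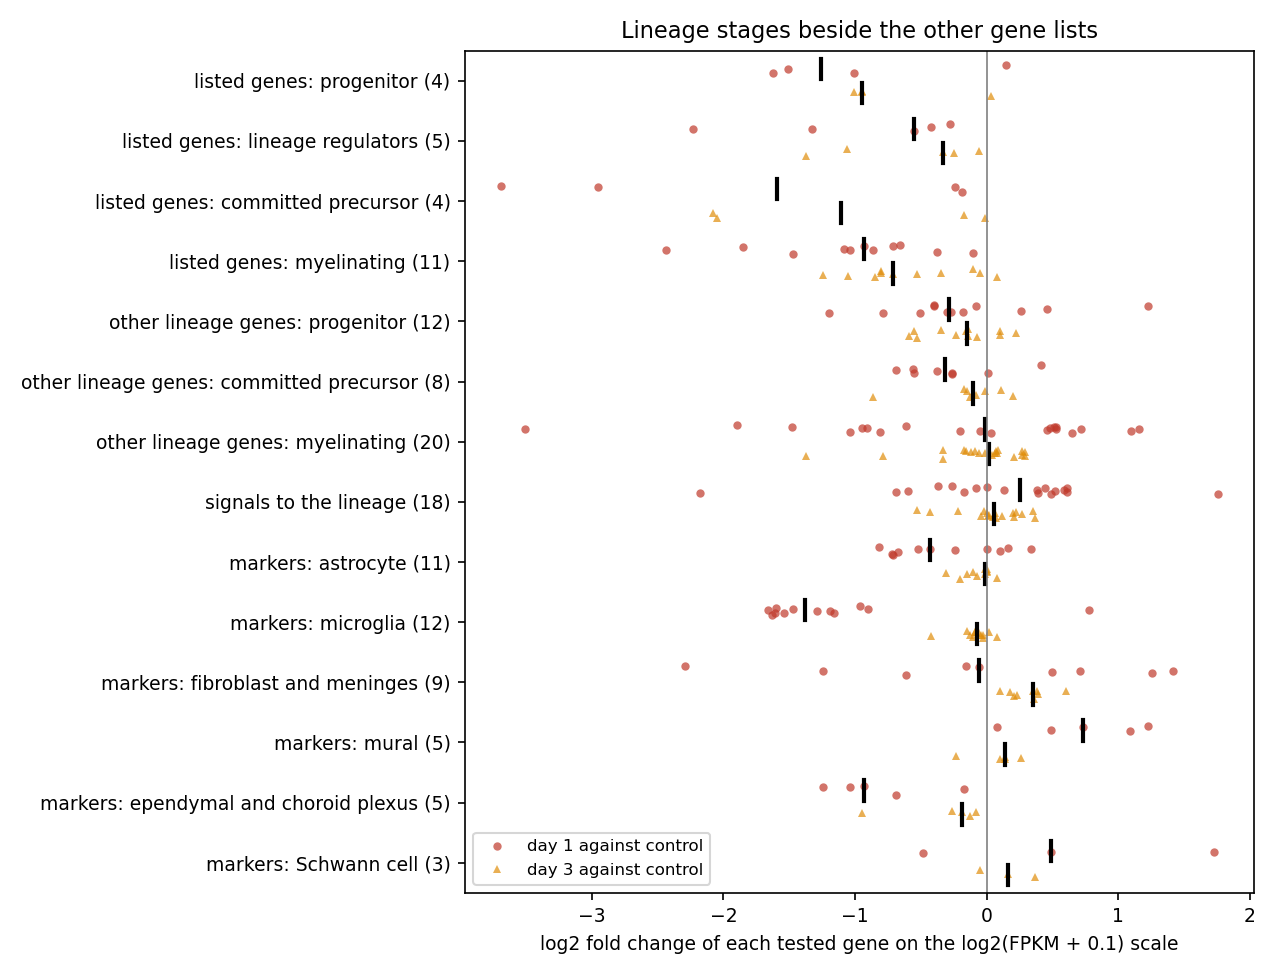
Log2 fold change of each tested gene of the lineage stages, the other lineage genes, the signals and the marker lists with at least 3 tested genes, for day 1 and day 3 against control, with a black bar at the median of each list. On day 1 the 4 lineage stages of the listed genes have medians of -1.59 to -0.55. The lists of other lineage genes have -0.32 to -0.01 and the microglia list has -1.38. On day 3 the stages have -1.11 to -0.33, the other lineage genes -0.15 to 0.01 and the microglia list -0.08.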

How the data were processed

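RNA of 9 libraries, 3 in each of 3 groups, was isolated with a column kit and made into libraries with the NEBNext Ultra RNA kit, per the labels' protocols. The deposited table holds FPKM, computed by the authors for each library, and each column was matched by the name in its library's description. The tools named by the submitters' processing notes are STAR 2.7.3a, cutadapt 2.6, FastQC 0.12.1 and DESeq2, and the builds mm10 and GRCm38. For the counter, annotation and strand setting nothing is given in the sources used here. The deposited FPKM gave whole reads for 20350 of 20350 genes above 0, to within 0.01 read, with library totals of 23032594 to 38414668.

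Between libraries FPKM were rescaled (median of ratios, factors 0.975 to 1.02), as 7.67% to 11.9% of reads came from Rn45s, a ribosomal RNA precursor. The filter kept 12611 genes averaging 1 FPKM or more. Values of log2(FPKM + 0.1) were fitted in R 4.3.3 by limma 3.58.1 with a variance trend on all 9 libraries, group being the only term. Tests were two-sided, with Benjamini-Hochberg adjustment over all genes tested. The 11 lineage genes under the filter were tested in a fit without it. The fit was tested on simulated data.

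The lineage genes, their stages, the 12 other lists and the tests were chosen with earlier results of these data known. Genes called with a log2 fold change of at least 1 in size are given per library, the others by mean or range, and low genes by reads. Of each other list the 3 called genes with the largest difference on day 1 are named, with any that went against most of the list, and Gfap. Tubb3, Stmn2 and Cdh5 are named as the tested genes of short lists. From the divided list of further myelinating genes, Adamts4, Nipal4, Cryab, Myo1d and Gsn are named as higher ones. Rgs5, Kcnj8, Abcc9, Des and Cldn5 are named to describe the mural and endothelial lists. Alternatives were pseudocounts of 0.01 and 1 FPKM, other filters and scalings, only the 6 libraries compared, the replicate number as a block, a threshold of 0.01, the recovered reads with limma-voom, and each library left out. Coordinates and promoters are from RefSeq, GRCm38.p6, and figures were drawn with matplotlib 3.10.9.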

Additional observations from a re-analysis of the deposited data

Results flagged for a closer look

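The level differed between day 3 and day 1 for 17 of the 24 tested lineage genes, by limma's test of that difference itself. Since the controls are shared, this is the same as a test between both differences from control. The harvest time of the controls is not given, so a changed effect of hydrogen peroxide cannot be told apart from longer time in culture. The log2 difference, day 3 minus day 1, was largest for Cldn11 at 1.73, Gpr17 at 1.61 and Mbp at 1.04. It was 0.90 for Bcas1, 0.86 for Sox10, 0.67 for Matn4, 0.61 for Cnp, 0.57 for Pdgfra and 0.51 for Nkx6-2. Smaller differences stood at 0.46 for Nfasc, 0.30 for Olig2, 0.27 for Nkx2-2, 0.23 for Enpp2, 0.22 for Olig1, 0.18 for Tcf7l2 and 0.09 for Sox8. Only Omg, among these 17, was lower on day 3, at -0.39. Of all genes tested 56.2% differed between the days, so a difference alone does not set these genes apart. With 3 libraries a group, single libraries far from their group were not looked for.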

How the results depend on the processing

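Of 1416 values of single genes under the alternatives, 1356 kept their direction and their side of the threshold, 31 lost the call, 19 gained one and 10 changed sign. Counts of lineage genes lower on day 1 (22), lower on day 3 (17 to 19) and higher on day 3 than on day 1 (14 to 16) held over the libraries left out. With the 5 FPKM filter, which leaves 16 genes, 11 were lower on day 3. C1ql1 became 1 gene higher on day 1 with only the 6 libraries compared, with limma-voom and without day 3 replicate 1 (range 0 to 1). Omg, lower on day 3 than on day 1, left 0 such genes without the filter, with the 5 FPKM filter, with only the 6 libraries compared and at the 0.01 threshold, and 0 to 1 over the libraries left out. The other lineage genes higher on day 3 were 1 without the filter and at the 0.01 threshold, 6 with limma-voom, and 1 to 4 over the libraries left out, with 1 without control replicate 1 or 2 or day 3 replicate 3.

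Sign changes were confined to values near 0, and their cause was not tested. Tcf7l2 on day 3 was 0.01 without day 3 replicate 1. Lhfpl3 between the days was -0.02 after quantile normalization and -0.05 to 0.07 over the libraries left out. C1ql1 on day 3 was -0.02 to 0.10, below 0 without control replicate 2 (-0.01) or day 3 replicate 3. Gpr37 after quantile normalization was 0.12 on day 1 and -0.14 between the days.

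Samples with the same replicate number showed no shared deviation (correlations of -0.079 to 0.111). The labels do not say if the numbers pair them, and weak correlations among so few libraries cannot settle it. With the replicate block 22 genes were lower on day 1, 17 lower on day 3 and 15 higher on day 3 than on day 1, Sox8 losing its call (adjusted p = 0.0683). Opalin, Ermn, S1pr5 and Mog rested on at most 17 reads in a library, and only Mog of these 4 was called in any comparison.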
